A study of Mus musculus with 6 samples.

Results

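This report covers 29 genes of mitochondrial fatty acid oxidation and ketone body metabolism in the livers of mice fed a high-fat diet and treated with atractylodin, a compound of Atractylodes plants. The genes were chosen by symbol from a list of the carnitine shuttle, beta-oxidation, the electron transfer flavoprotein and ketogenesis, with 3 related regulators of acyl-CoA or pyruvate use (Acot1, Acot2 and Pdk4). All 29 were found among the 23282 rows of the deposited files, and all 29 passed the filter on low counts. A few lie outside the matrix pathway that the list is named for: Acot1 is a cytosolic thioesterase, Acsl1 and Acsl5 sit on membranes that face the cytosol, and Pdk4 acts on pyruvate use rather than on fatty acids.

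Fatty acids reach the mitochondrial matrix as carnitine esters and are then shortened in repeated rounds of dehydrogenation, hydration, a second dehydrogenation and thiolysis. The acyl-CoA dehydrogenases pass their electrons through the electron transfer flavoprotein to the respiratory chain. In liver the acetyl-CoA formed can be turned into ketone bodies for export, and the whole programme is known to be driven by the nuclear receptor PPAR alpha in fasting and in fat feeding.

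The study compared 3 liver libraries of mice given atractylodin at 10 mg/kg with 3 liver libraries of mice given vehicle. All were male C57BL/6N mice, put on the high-fat diet at 8 weeks of age and kept on it for 12 weeks; dosing was by mouth on 5 days per week in the last 4 weeks, after 8 weeks of diet. Both groups carried the diet, so no value here compares it with a lean liver. Total counts were 9871762 to 12565393 with atractylodin and 1831461 to 12111553 with vehicle, where vehicle 1 was by far the shallowest library. Levels are given as CPM, counts per 1000000 counts of a library whose size was scaled by TMM. The method counts reads at the 3' end of transcripts, so levels were not divided by transcript length and are compared between groups only, gene by gene.

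Atractylodin left most of these genes within a narrow range of their vehicle level. One member rose, Pdk4, the kinase that inhibits pyruvate dehydrogenase (3.46-fold in the fit), and 1 fell, Acsl5, an acyl-CoA synthetase (1.38-fold lower). The other 27 did not pass an adjusted p of 0.05 in edgeR's quasi-likelihood test. Of all 12505 rows tested, 3.92% passed higher and 3.33% lower, together 7.25%, beside 6.90% of the members, so the members' share of calls was close to the background. The median log2 fold change of the members was 0.07 and that of all rows tested -0.0015. In 25 of the 29 genes the 95% interval of the change lay wholly within 1.5-fold in either direction, and in 26 within 2-fold. The same held within 1.5-fold for 40.2% of all rows, a share not matched to the members for level, on which interval width also depends. The exceptions at 1.5-fold were Acsl5, Acot1, Acot2 and Pdk4.

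**Figure D1:**
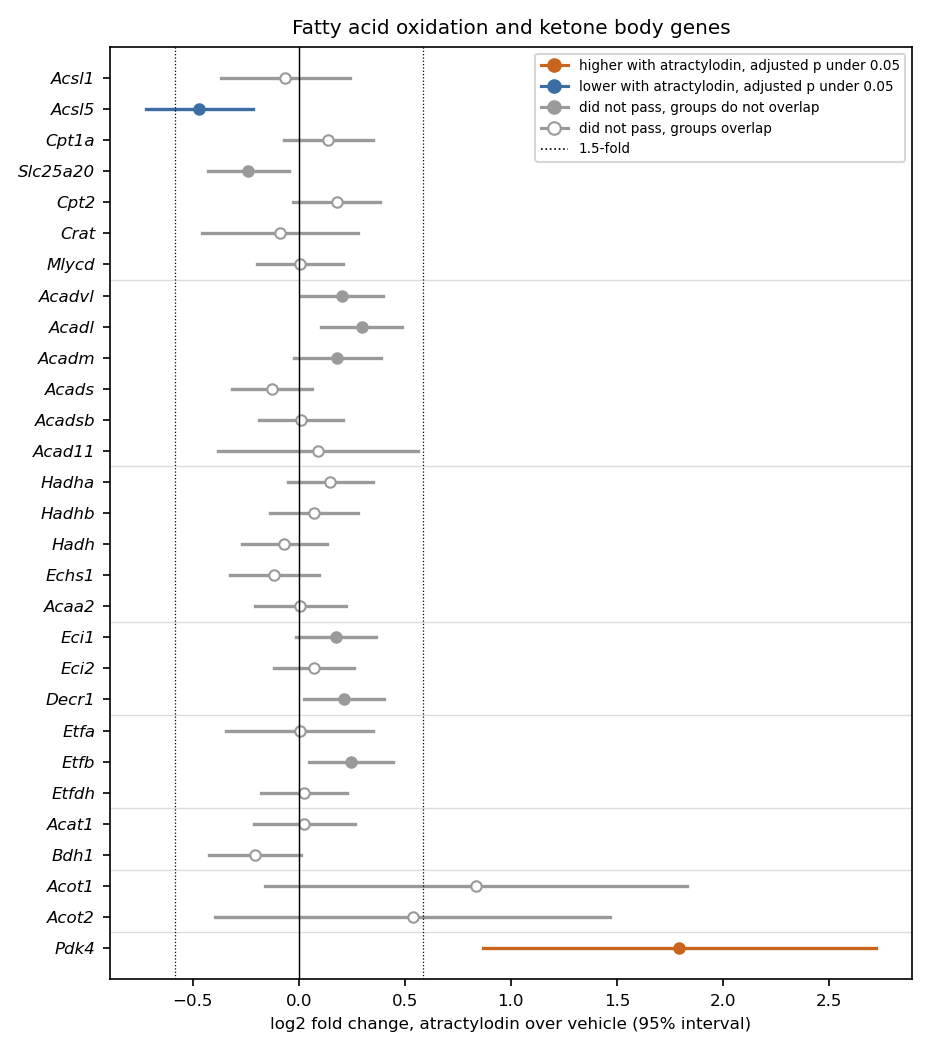
Log2 fold change of each of the 29 genes, atractylodin over vehicle (horizontal axis), with its 95% interval; rows run by role and grey lines part the roles. Points other than Pdk4, Acot1 and Acot2 lie between -0.47 and 0.30, and filled points mark genes whose libraries do not overlap between the groups.

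Summed over the members, the level was 10575, 10901 and 9519.6 CPM in the atractylodin libraries and 10265, 9503.7 and 10049 CPM in the vehicle libraries. The means were 10332 ± 722 and 9939.5 ± 393 CPM (SD, n = 3 each), a ratio of 1.04, and the libraries overlapped. In bulk liver, a change in the share of hepatocytes and a change in RNA per hepatocyte cannot be told apart. All 3 atractylodin libraries stood above all 3 vehicle libraries in 7 members (24.1%, against 13.5% of all rows) and below them in 2 (6.90%, against 12.6%). The 7 were Acadvl, Acadl, Acadm, Eci1, Decr1, Etfb and Pdk4, and the 2 were Acsl5 and Slc25a20. An unadjusted p under 0.05 was reached by 7 members (24.1%), beside 21.5% of all rows.

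Fatty acid activation and the carnitine shuttle held the 1 fall. Acsl5, which joins long-chain fatty acids to coenzyme A (ENSMUSG00000024981.6, GRCm38 chromosome 19, 55251938 to 55297720, plus strand), stood at 145, 112 and 115 CPM with atractylodin, against 189, 147 and 181 CPM with vehicle. Every atractylodin library was below every vehicle library, by a narrow margin between atractylodin 1 and vehicle 2. The log2 fold change was -0.47 ± 0.12 (SE, edgeR adjusted p = 0.0246). The call was lost when any 1 of 4 libraries was left out, namely atractylodin 2 (adjusted p = 0.0901), atractylodin 3 (0.0818), vehicle 1 (0.116) or vehicle 3 (0.127), where the log2 fold change stayed between -0.42 and -0.39. It was also lost in limma-voom (adjusted p = 0.0523) and, in edgeR, after thinning to the shallowest library (adjusted p = 0.195).

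Acsl1, the major hepatic acyl-CoA synthetase, showed no such difference. It stood at 1451, 1427.5 and 965 CPM with atractylodin and 1429, 1232 and 1358 CPM with vehicle (log2 fold change -0.06 ± 0.14, adjusted p = 0.843). The low value was that of atractylodin 3, and the groups overlapped. Cpt1a, the malonyl-CoA-sensitive carnitine acyltransferase that controls entry into the pathway, stood at 405, 413.5 and 354 CPM with atractylodin, against 332, 394 and 336 CPM with vehicle (log2 fold change 0.14, 95% interval -0.07 to 0.35, adjusted p = 0.454). Cpt2, which reforms acyl-CoA inside the mitochondrion, had a log2 fold change of 0.18 (95% interval -0.03 to 0.38).

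Slc25a20, the carrier that exchanges acylcarnitine for carnitine across the inner membrane, lay between them in the pathway and had an estimate of the other sign. Its levels were 177, 174 and 168 CPM with atractylodin and 221, 196 and 197 CPM with vehicle. The groups did not overlap, but the log2 fold change of -0.24 ± 0.09 (SE) did not pass (adjusted p = 0.129). It passed when libraries were scaled by total counts alone (log2 fold change -0.32, adjusted p = 0.0395). Mlycd, which removes malonyl-CoA and so relieves Cpt1a, averaged 103 ± 7.27 CPM with atractylodin and 102 ± 6.14 CPM with vehicle (SD, n = 3 each). Crat, which forms short-chain acylcarnitines, averaged 40.3 ± 9.54 and 42.8 ± 5.18 CPM in the atractylodin and vehicle libraries, and again atractylodin 3 held the low value (29.3 CPM).

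The acyl-CoA dehydrogenases open each round of oxidation and differ in the chain length they take. None of the 6 passed, and in 3 of them (Acadvl, Acadl and Acadm) all atractylodin libraries were above all vehicle libraries. That was so in 13.5% of all rows. Acadl, the long-chain dehydrogenase (ENSMUSG00000026003.5, chromosome 1, 66830839 to 66863277, minus strand), stood at 339, 336 and 298 CPM with atractylodin, against 261, 261 and 269.9 CPM with vehicle. Every atractylodin library was above every vehicle library. The log2 fold change was 0.30 ± 0.09 (SE), and the edgeR adjusted p of 0.0550 did not pass. It passed without atractylodin 3 (adjusted p = 0.0384) and with no filter on low counts (0.0305), and over the 15 other settings its log2 fold change ran between 0.22 and 0.36.

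Acadvl, which takes very long chains, stood at 427, 401 and 369.7 CPM with atractylodin and 334, 361 and 343 CPM with vehicle (log2 fold change 0.20, adjusted p = 0.206). Its 3' end needs care, since 73.8% of the 50-base words in the last 400 bases of its transcript are antisense to the neighbouring gene Dvl2 and the strand setting of the counting is not given in the sources used here. Of the 12 members that overlap a gene of the other strand, the next largest such share was 7.4%, in Hadha. Eci1, which overlaps no such gene, had 7.7%, antisense to transcripts of many genes elsewhere. Dvl2 averaged 6.87 ± 0.76 and 4.97 ± 1.56 CPM with atractylodin and vehicle (SD, n = 3 each). Acadm, the medium-chain dehydrogenase, stood at 768, 946 and 824 CPM with atractylodin and 742, 731 and 764 CPM with vehicle (log2 fold change 0.18, adjusted p = 0.302). Its groups were barely apart, with atractylodin 1 just above vehicle 3, and atractylodin 2 was the high library.

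Acads, the short-chain dehydrogenase, averaged 172 ± 10.1 CPM with atractylodin and 187 ± 6.02 CPM with vehicle (log2 fold change -0.13, 95% interval -0.31 to 0.06). Acadsb, which oxidizes short branched acyl groups from isoleucine, averaged 106 ± 5.26 and 106 ± 6.10 CPM (SD, n = 3 each). Acad11, another member of the family, averaged 215 ± 57.4 and 202 ± 10.95 CPM, with atractylodin 1 at 149 CPM below all other libraries. The family as a whole summed to 1945, 2216 and 2028 CPM with atractylodin and to 1822, 1853 and 1876 CPM with vehicle, which did not overlap. The sums of the auxiliary enzymes and of the electron transfer flavoprotein genes, described below, did not overlap either. No such sum was tested.

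**Figure D2:**
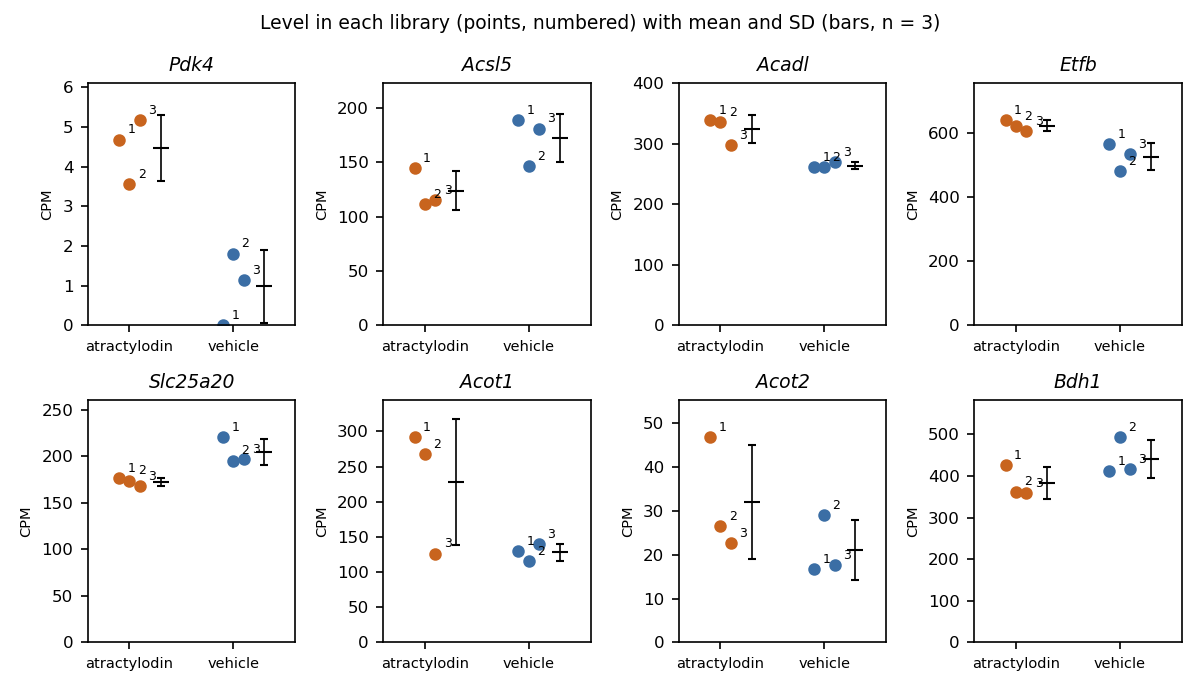
CPM (vertical axes, from 0) of 8 genes in the 3 atractylodin and 3 vehicle libraries, numbered by replicate, with mean and SD (n = 3) beside the points. The groups are apart for Pdk4, Acsl5, Acadl, Etfb and Slc25a20, whereas for Acot1 atractylodin 3 lies among the vehicle libraries.

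Of the 5 genes for the enzymes that complete the round none passed, and their median log2 fold change was 0.01. Hadha and Hadhb encode the alpha and beta subunits of the trifunctional protein, which hydrates, dehydrogenates and cleaves long-chain intermediates. The genes lie head to head on chromosome 5, Hadha at 30118304 to 30155162 on the minus strand and Hadhb at 30155248 to 30184593 on the plus strand, with 85 bases between these GENCODE starts. The stretch between the pair is shown within the RefSeq promoter window of Hadhb on GRCm38.p6, plus strand, chr5:30155003-30155302, with the bases between the GENCODE starts in capitals. The start that RefSeq gives Hadha lies further into that gene, outside the printed window.
Hadhb promoter: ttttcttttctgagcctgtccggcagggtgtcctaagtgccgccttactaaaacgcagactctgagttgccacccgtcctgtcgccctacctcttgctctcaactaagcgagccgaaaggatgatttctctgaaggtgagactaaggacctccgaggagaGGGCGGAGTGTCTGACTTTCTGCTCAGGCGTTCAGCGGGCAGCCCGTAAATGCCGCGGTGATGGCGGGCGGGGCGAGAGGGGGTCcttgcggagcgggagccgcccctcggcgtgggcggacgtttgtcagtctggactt

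Hadha stood at 508, 449.9 and 422 CPM with atractylodin, against 424, 400.01 and 422 CPM with vehicle (log2 fold change 0.15 ± 0.10, SE, adjusted p = 0.396). Hadhb stood at 122.8, 134 and 109 CPM with atractylodin and 122.7, 113 and 114 CPM with vehicle (log2 fold change 0.07 ± 0.10, adjusted p = 0.733). Both estimates of the pair were positive and small, both groups overlapped, and no interval went past 0.35. Under scaling by total counts the estimate of Hadhb turned to -0.01.

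The soluble enzymes of the later steps had intervals on both sides of 0. Echs1, the hydratase for shorter chains, averaged 149 ± 12.8 CPM with atractylodin and 162 ± 15.9 CPM with vehicle (SD, n = 3 each). Hadh, the short-chain hydroxyacyl-CoA dehydrogenase, averaged 714.5 ± 45.8 and 749 ± 47.4 CPM. Acaa2, the thiolase that releases acetyl-CoA, averaged 1171 ± 102 and 1166 ± 109 CPM, with a 95% interval of -0.21 to 0.22 for its log2 fold change. No gene of these 5 reached an unadjusted p under 0.05 in edgeR, and none passed in DESeq2 or limma-voom.

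The auxiliary enzymes, which reposition double bonds of unsaturated fatty acids, had 3 positive estimates. Decr1, the dienoyl-CoA reductase, stood at 241, 227 and 229 CPM with atractylodin and 191, 197 and 211 CPM with vehicle. All atractylodin libraries were higher, and the log2 fold change was 0.21 ± 0.09 (SE), with adjusted p = 0.166. Eci1, an enoyl-CoA isomerase, stood at 314, 315 and 309.9 CPM with atractylodin and 298, 267 and 269 CPM with vehicle, again without overlap (log2 fold change 0.18, adjusted p = 0.270). Eci2, a second isomerase that is also found in peroxisomes, averaged 251 ± 10.6 CPM with atractylodin and 239 ± 11.4 CPM with vehicle (log2 fold change 0.07, and -0.01 under scaling by total counts). No gene of this group passed in edgeR, DESeq2 or limma-voom, and 1 had an unadjusted p under 0.05.

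Of the genes that carry electrons from the dehydrogenases, 1 of 3 stood apart. Etfb, the beta subunit of the electron transfer flavoprotein, stood at 639.8, 620.2 and 605 CPM with atractylodin and 564, 479 and 532 CPM with vehicle. Each atractylodin library was above each vehicle library, with a log2 fold change of 0.25 ± 0.09 (SE) that did not pass (adjusted p = 0.131). Of the 50-base words in the last 400 bases of Etfb, 34.2% are shared with the annotated transcript Gm45233 on the same strand. Etfa, the partner subunit of the same heterodimer, stood at 104, 166 and 138 CPM with atractylodin and 151, 126 and 133 CPM with vehicle (log2 fold change 0.00, 95% interval -0.34 to 0.35). Atractylodin 1 was the low library. Etfdh, the dehydrogenase that hands the electrons to ubiquinone, averaged 185 ± 11.8 CPM with atractylodin and 181 ± 16.8 CPM with vehicle.

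**Figure D3:**
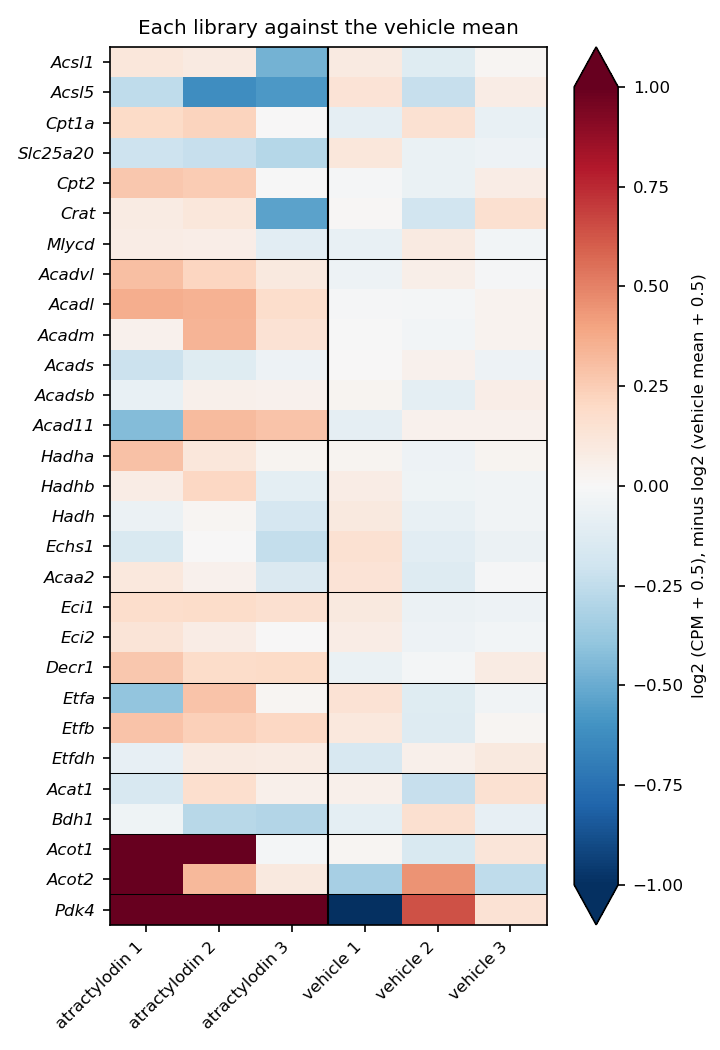
Level of each gene (rows, by role) in each library (columns) as log2 of CPM plus 0.5, minus the same for the vehicle mean; colours stop at 1 either way. Atractylodin 3 is paler or bluer than atractylodin 1 and 2 across much of the panel, and Pdk4, Acot1 and Acot2 reach the end of the scale.

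The 2 ketone body enzymes among the members did not pass. Bdh1, which interconverts acetoacetate and beta-hydroxybutyrate, stood at 427, 363 and 359 CPM with atractylodin and 412, 494 and 416 CPM with vehicle. Atractylodin 1 lay among the vehicle libraries and the other 2 below them, and the log2 fold change was -0.20 ± 0.10 (SE), with adjusted p = 0.261. Acat1, the mitochondrial acetoacetyl-CoA thiolase, averaged 962 ± 109.7 CPM with atractylodin and 945 ± 125 CPM with vehicle. Beside them, 1 of 5 other ketone body genes fell and none rose. It was Slc16a6, a transporter known from zebrafish to carry ketone bodies out of hepatocytes, at 8.27, 9.08 and 9.35 CPM with atractylodin and 20.99, 27.9 and 20.6 CPM with vehicle (2.64-fold lower, adjusted p = 0.000165). That call held under each of the 15 other settings.

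The thioesterases, which free fatty acids from coenzyme A, had the widest spread. Acot1 (chromosome 12, 84009490 to 84018371, plus strand) stood at 292, 268 and 126 CPM with atractylodin, against 129.7, 115 and 139 CPM with vehicle. Atractylodin 1 and 2 were well above every vehicle library and atractylodin 3 was among them, so the log2 fold change of 0.83 ± 0.37 (SE) did not pass (adjusted p = 0.305). Without atractylodin 3 it was 1.13 with an adjusted p of 6.63e-06, and leaving out any other library gave adjusted p of 0.453 to 0.537. That one library decides the call.

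Acot2, the mitochondrial paralog next to it (chromosome 12, 83987861 to 83993873, plus strand), stood at 46.7, 26.5 and 22.6 CPM with atractylodin and 16.7, 29.02 and 17.6 CPM with vehicle (log2 fold change 0.54 ± 0.37, adjusted p = 0.487). The high library was atractylodin 1 and the groups overlapped. None of the 50-base words in the last 400 bases of the Acot1 transcript occur in another annotated gene, and 0.6% of those of Acot2 do, none of them in Acot1. Counting both as 1 gene gave a log2 fold change of 0.80 (adjusted p = 0.287).

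Pdk4, the member that rose, phosphorylates and inactivates pyruvate dehydrogenase and so spares glucose carbon while fat is burned. The gene lies on chromosome 6, 5483351 to 5496309, minus strand (ENSMUSG00000019577.6). Its counts were 47, 34 and 62 in the atractylodin libraries and 0, 21 and 14 in the vehicle libraries, which equals 4.68, 3.55 and 5.18 CPM against 0, 1.80 and 1.13 CPM. Every atractylodin library was higher, though a count of 0 in the shallow vehicle 1 still allows 1.64 CPM, the worth of 3 counts there before TMM scaling. The log2 fold change was 1.79 ± 0.44 (SE, 95% interval 0.87 to 2.72, adjusted p = 0.0177). The call held without vehicle 1 (log2 fold change 1.61, adjusted p = 0.0400) and was lost without atractylodin 3 (0.0595) or vehicle 3 (0.101). It was not tested at a mean CPM of at least 5 or after thinning to the depth of vehicle 1, since Pdk4 then fell under the filter.

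The promoters of the 2 genes that passed are shown because theirs are the calls of the set. Both are RefSeq windows on GRCm38.p6 from 250 bases before to 50 bases after the start, written along the gene, with CCAAT boxes (letters CCAAT, read on either strand, so ATTGG on the other) in capitals. Pdk4 is chr6:5496229-5496528 on the minus strand and Acsl5 is chr19:55253119-55253418 on the plus strand. The RefSeq starts are not the GENCODE starts given above: that of Pdk4 lies just inside the GENCODE gene, and the whole window of Acsl5 does.
Pdk4 promoter: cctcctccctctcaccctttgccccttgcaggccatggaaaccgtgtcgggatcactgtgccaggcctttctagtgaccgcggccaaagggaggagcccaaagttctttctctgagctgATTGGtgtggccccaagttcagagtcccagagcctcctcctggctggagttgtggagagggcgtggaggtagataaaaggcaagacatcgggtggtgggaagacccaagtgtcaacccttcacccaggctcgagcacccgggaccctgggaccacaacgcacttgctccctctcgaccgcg
Acsl5 promoter: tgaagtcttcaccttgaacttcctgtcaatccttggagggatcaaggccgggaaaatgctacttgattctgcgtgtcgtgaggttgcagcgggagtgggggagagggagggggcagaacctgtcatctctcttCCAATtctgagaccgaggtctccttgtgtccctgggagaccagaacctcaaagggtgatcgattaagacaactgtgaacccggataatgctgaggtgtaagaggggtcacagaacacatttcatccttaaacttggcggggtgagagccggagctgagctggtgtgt

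Each window held 1 CCAAT box, as did 37.4% of all 32851 mouse promoter windows (at least 1) and 13 of the 27 windows of members. Promoter windows were found for 25 of the 29 genes. The direct repeat bound by PPAR alpha with its partner RXR was searched on both strands as AGGTCANAGGTCA and, with 1 free base in each repeat, as AGGNCANAGGNCA. Neither was in any of the 27 windows, against 0.0396% and 0.381% of all windows, which says only that these letters are not within these windows.

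Lists of genes under the same receptor, or that regulate the pathway, held further calls. Of 31 tested PPAR alpha targets outside the mitochondrial pathway, 7 rose, 1 fell and 23 did not pass, with a median log2 fold change of 0.18. Beside this list and each list below, 3.92% of all rows tested passed higher and 3.33% lower. By order of p the first 3 were Angptl4, a lipoprotein lipase inhibitor (1.72-fold, adjusted p = 0.00154), and the fatty acid omega-hydroxylases Cyp4a31 (1.80-fold, 0.00177) and Cyp4a10 (1.55-fold, 0.00422), which are close paralogs whose reads may be shared. The 7 also include Cyp4a14, a further paralog of these, and Hdc, both named after their values were seen. The groups of Hdc overlapped, and its call held in 5 of the 15 other settings. The 1 fall was of Cd36, also named after its value was seen (1.65-fold lower, edgeR adjusted p = 0.018). The groups of Cd36 did not overlap, and its call held in 11 of the 15 other settings. The summed level of the whole list was 27336, 26134 and 20842 CPM in atractylodin 1, 2 and 3, against 19282, 19015 and 20202 CPM in the vehicle libraries. Atractylodin 3 was thus the lowest of its group here too. These lists and the members were set side by side and were not tested against each other. The targets were chosen with earlier results of these data known.

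**Figure D4:**
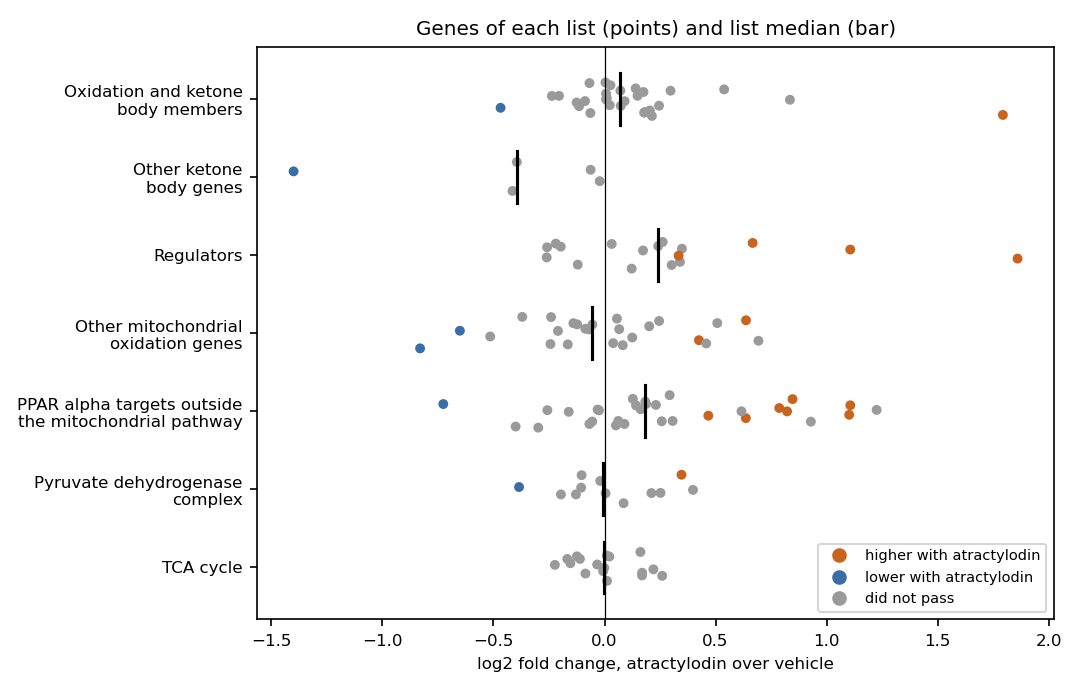
Log2 fold change (horizontal axis) of every tested gene of each list (points) with the list median (black bar); orange points passed higher with atractylodin, blue points lower. Most of the 29 members and all 17 tricarboxylic acid cycle genes lie near 0, and the PPAR alpha targets hold 7 orange points and the regulators 4.

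Among 17 regulators of fatty acid oxidation 4 rose and none fell, with a median log2 fold change of 0.24. Fgf21 is in this list and among the 7 targets above that rose, so the counts share 1 gene. Lpin1, a phosphatidate phosphatase that also acts as a coactivator of PPAR alpha, stood at 299, 268 and 270.1 CPM with atractylodin and 51.7, 101 and 70.3 CPM with vehicle (adjusted p = 0.00644). The hormone gene Fgf21, a PPAR alpha target, stood at 16.7, 17.96 and 15.6 CPM with atractylodin and 3.77, 6.70 and 10.35 CPM with vehicle (adjusted p = 0.00649). Foxo1, a transcription factor that insulin holds out of the nucleus and that can drive Pdk4, averaged 117 ± 24.1 and 74.8 ± 6.53 CPM with atractylodin and vehicle (adjusted p = 0.00676). These 3 calls held under each of the 15 other settings. The remaining rise was of Ncor1, a corepressor named after its value was seen (1.26-fold, adjusted p = 0.0271), which passed in 1 of the 6 refits with a library left out, that without atractylodin 2. Ppara itself, named after its value was seen, averaged 773 ± 57.5 CPM with atractylodin and 627 ± 21.7 CPM with vehicle, without overlap, and did not pass (log2 fold change 0.30, adjusted p = 0.0593).

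Of 25 other genes listed with mitochondrial fatty acid oxidation, 2 rose and 2 fell. By order of p these began with Echdc3, an enoyl-CoA hydratase domain protein (1.57-fold lower, adjusted p = 0.0133), Nudt7, a coenzyme A diphosphatase of peroxisomes rather than mitochondria (1.78-fold lower, 0.0276), and Acsm5, a medium-chain acyl-CoA synthetase (1.34-fold higher, 0.0439). The other rise was of the carnitine importer gene Slc22a5, named after its value was seen (1.55-fold, 0.0460). Over the 6 refits with a library left out, the call of Acsm5 was lost in all 6, those of Nudt7 and Slc22a5 in 4 each and that of Echdc3 in 2. Without vehicle 1 none of these 4 genes passed.

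On the pyruvate side, where Pdk4 acts, 1 of 12 tested genes rose and 1 fell. Pcx, pyruvate carboxylase, averaged 122.5 ± 2.59 CPM with atractylodin and 161 ± 14.8 CPM with vehicle (1.31-fold lower, adjusted p = 0.0174), and Mpc2, a subunit of the mitochondrial pyruvate carrier, averaged 393 ± 22.6 and 308 ± 28.9 CPM (1.27-fold higher, 0.0348). Both calls were lost without vehicle 1 (and without vehicle 2 or atractylodin 2), and that of Mpc2 also without atractylodin 1. Pdk2, the other main liver isoform of the kinase and named after its value was seen, averaged 52.2 ± 4.27 and 59.6 ± 1.61 CPM (log2 fold change -0.20, adjusted p = 0.309). None of 17 tricarboxylic acid cycle genes passed in edgeR, DESeq2 or limma-voom, 2 had an unadjusted p under 0.05, and their median log2 fold change was 0.00.

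The libraries expressed hepatocyte genes throughout, with 8 markers summing to 80169 to 87445 CPM with atractylodin and 82932 to 90921 CPM with vehicle, of which 1 rose. Macrophage markers summed to 316 to 474 CPM with atractylodin and 386 to 559 CPM with vehicle, and none of 13 passed in edgeR, where 4 had an unadjusted p under 0.05, DESeq2 called 1 and limma-voom 0. Of 9 endothelial markers 1 rose and 1 fell (sums of 333 to 349 and 365 to 376 CPM). Cholangiocyte markers were lower in sum, at 33.1 to 35.7 CPM with atractylodin and 64.6 to 81.3 CPM with vehicle. Of 4 tested genes 3 fell, by order of p Tstd1, Spp1 and Sox9, which made up most of the sum. Cftr was at or near 0. Epcam, Krt19 and Krt7, named after their values were seen, had no call. Epcam averaged 1.82 and 1.38 CPM with atractylodin and vehicle (log2 fold change 0.05). Krt19 (0.67 and 0.77 CPM) and Krt7 (0.25 and 0.58 CPM) were under the filter on low counts. Adipocyte markers summed to 2.40 to 9.37 and 8.65 to 37.3 CPM, nearly all of it Cfd, with Adipoq at 0 in every library. Muscle markers stayed at or below 1.67 CPM in sum in every library, with Ckm and Myh6 at 0. Their part in the results on the members was not tested.

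Atractylodin 3 was the lowest library of its group in 19 of the 29 members, against 7 for atractylodin 1 and 3 for atractylodin 2. In the vehicle group vehicle 2 was the lowest in 19, vehicle 1 in 9 and vehicle 3 in 1. Leaving out atractylodin 3 called 2 members higher, Acadl and Acot1, and none lower. Leaving out vehicle 1 left Pdk4 as the 1 call, and leaving out vehicle 3 left none in edgeR. The labels give each library a number but do not say that it came from its own animal, so the p-values rest on library-to-library spread, which may be technical.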

How the data were processed

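Liver RNA (500 ng of total RNA, extracted with Trizol) went into Lexogen QuantSeq 3' libraries, per the labels' protocols. The files the authors deposited hold raw counts per gene symbol, 1 file per library, with no normalization. Bowtie2, bedtools and the build mm10 were used, per the submitters' processing notes, without versions. The annotation, the strand setting and the treatment of reads matching several genes are not given in the sources used here.

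Groups came from sample titles. Of 23282 rows, 44 repeated an earlier symbol and stayed rows of their own. Rows were filtered with filterByExpr, scaled by TMM and tested over all 12505 rows in edgeR 4.0.16 (R 4.3.3, robust quasi-likelihood F-test) on the group alone, and p-values were adjusted by Benjamini-Hochberg, with a threshold of 0.05. SE is the log2 fold change over the square root of F, and intervals use the degrees of freedom of the test. On 1 set of simulated counts the test found more of the 2-fold than of the 1.5-fold changes, missed most of the smaller ones, and made false calls above the nominal rate. CPM used TMM-scaled sizes of the filtered rows. No pair of libraries agreed within sampling noise (chi-square per degree of freedom at least 2.75). Floors of 3 counts cover counting error only, since molecular identifiers are not mentioned.

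Alternatives were DESeq2 1.42.0, limma-voom (limma 3.58.1), other scalings and filters, thinning to the shallowest library, a block for the replicate number, and each library left out in turn. The members and lists were chosen with earlier results of these data known. Values per library are given for members that passed, and for the smallest p in each role; those of further members were added after their values were seen. Up to 3 called genes per other list are named in order of p, and others are marked where named. Positions are from GENCODE M21 on GRCm38 (mm10). Promoters are from RefSeq. Values of some genes of the surrounding lists are not reported here. Transcript ends were compared in 50-base words over the last 400 bases of the longest coding transcript. Figures used matplotlib 3.10.9.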

Additional observations from a re-analysis of the deposited data

How the results depend on the processing

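The count of members that rose (1) became 2 with no filter on low counts, 0 at a mean CPM of at least 5 and 0 after thinning to the shallowest library, and ran from 0 to 2 when 1 library was left out. The count that fell (1) became 2 under total counts alone, 0 in limma-voom and 0 after thinning, and ran from 0 to 1 without 1 library. The 906 rows called in all became 572 after thinning, from 467 to 751 without 1 library, 806 in DESeq2 and 1345 with no filter. At total counts alone the calls split into 312 higher and 707 lower, against 490 and 416. Thinning removes counts and the higher filter removes Pdk4; the other causes were not tested. The members' median log2 fold change of 0.07 was between 0.04 and 0.11 except -0.01 under total counts alone, where that of all rows was -0.09, and -0.0023 without atractylodin 2. Genes raised in the surrounding lists, 13 in all, were 8 under total counts alone and 7 to 12 without 1 library, alternatives chosen after seeing the data.

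Estimates that turned sign had adjusted p of 0.54 or more. Under total counts alone the log2 fold changes were -0.077 for Mlycd, -0.074 for Acadsb, -0.011 for Hadhb, -0.073 for Acaa2, -0.0091 for Eci2, -0.081 for Etfa, -0.061 for Etfdh and -0.055 for Acat1. Under upper quartile scaling they were -0.0097 for Mlycd, -0.0073 for Acadsb, -0.0088 for Acaa2 and -0.014 for Etfa. Mlycd was -0.0069 in limma-voom and -0.018 after thinning, and Crat 0.113 after thinning. Without 1 library the ranges were -0.158 to 0.107 for Acsl1, -0.198 to 0.102 for Crat, -0.021 to 0.066 for Mlycd, -0.037 to 0.055 for Acadsb, -0.030 to 0.301 for Acad11, -0.051 to 0.080 for Acaa2, -0.16 to 0.17 for Etfa, -0.040 to 0.080 for Etfdh and -0.072 to 0.12 for Acat1.

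The replicate number as a block gave 811 calls, with 1 member higher and 1 lower, the same genes as without it, and turned Etfa to -0.010. Same-numbered libraries did not deviate together (correlations of -0.09 to 0.02), so no pairing by number was visible. With so few libraries this cannot show that they were not handled in pairs. Depth limits Pdk4 most, with 0 to 62 counts per library.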
